A study of Homo sapiens with 6 samples.

Results

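A set of 10 genes of vessel growth and vessel tone was followed in prostate epithelial cells that overexpress the miR-183 family cluster. The set was defined by gene symbol, with earlier results of these data known. All 10 symbols were found among the 14884 named genes on the arrays, each with 1 transcript cluster. It holds the growth factors VEGFA, VEGFB, VEGFC and PGF, the angiopoietins ANGPT1 and ANGPT2, the related protein ANGPTL4, the vasoactive peptides ADM and EDN1, and the hypoxia factor EPAS1. No gene of the set passed the test between the groups. ADM, the precursor of adrenomedullin, was the only one whose groups did not overlap, with a log2 level of 5.23 ± 0.07 (SD, n = 3) in RWPE1-CTRL against 5.57 ± 0.06 (SD, n = 3) in RWPE1-183FC. That is 1 gene of 10, close to the 9.73% of all genes whose groups did not overlap. VEGFA, VEGFC and EDN1 differed more between arrays of 1 group than between the groups.

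RNA came from RWPE-1, an immortalised line of benign human prostate epithelium grown in keratinocyte serum-free medium. RWPE1-183FC cells carried a lentivirus with the genomic region of miR-183, miR-96 and miR-182 and a GFP tracer, and RWPE1-CTRL cells carried the same vector with a scrambled control. Both lines were sorted for GFP as polyclonal populations, and each group had 3 biologic replicates on 1 Affymetrix array each. Nothing in the sources used here says how the cultures of a group were separated, so the p-values measure the spread between these arrays. Because the samples are bulk cell populations, fewer expressing cells and less RNA per cell cannot be told apart.

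Vascular endothelial growth factors are secreted ligands that bind receptor tyrosine kinases on blood and lymphatic endothelium, with neuropilins as co-receptors. Under low oxygen, the HIF-alpha proteins, among them the EPAS1 product HIF-2-alpha, pair with ARNT and bind the core motifs ACGTG or GCGTG near genes such as VEGFA, ADM and ANGPTL4. Epithelial cells, the prostate's included, can secrete several of these factors, while their main receptors are typical of endothelium.

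The 3 miRs of the overexpressed cluster are shown because they are the agent that separates the groups, and the seed (bases 2 to 8), which pairs with targets, is in capitals. Mature sequences and coordinates are those of RefSeq for GRCh38.p14, all on the minus strand.
hsa-miR-183-5p, chr7:129774967-129774988: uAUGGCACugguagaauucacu
hsa-miR-96-5p, chr7:129774739-129774761: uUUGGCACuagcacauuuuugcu
hsa-miR-182-5p, chr7:129770447-129770470: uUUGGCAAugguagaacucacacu
No 2 of them shared bases 2 to 8, and miR-96-5p and miR-182-5p shared bases 2 to 7.

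The array features of the transgene followed the labels for MIR96 and MIR183. MIR96 averaged 2.35 ± 0.39 (SD, n = 3) in the controls against 5.55 ± 0.37 (SD, n = 3) with the cluster, and limma with no filter gave an adjusted p of 0.00175. MIR183 averaged 2.54 ± 0.43 (SD, n = 3) and 4.34 ± 0.26 (SD, n = 3), with an adjusted p of 0.0348 from limma. MIR182 went from 2.94 ± 0.29 (SD, n = 3) to 3.27 ± 0.16 (SD, n = 3), overlapped between the groups and was not called with no filter. Its median was under the 20th percentile of all genes, so it was not in the filtered test. The study reported overexpression of the mature miRs, miR-182 among them, in these cells by RT-qPCR, which is another measure than this array feature. Array medians over all transcript clusters were 3.82 to 3.86 and the 6 arrays correlated at 0.974 to 0.988, and their number limits the precision. Principal components placed both replicate 2 arrays on one side of the first axis (39.1% of the variance) and separated the groups on the second (19.8%).

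A gene was called if limma gave a false-discovery rate under 0.2 and a fold change over 1.5 after removal of genes of low median or low variance, the thresholds of the study's methods. Of 9583 genes in that test, 90 were called (0.939%), 48 higher and 42 lower in RWPE1-183FC. None of the 8 genes of the set that passed the filter was called. With no filter, 36 of 14884 genes were called (0.242%) and none of the 10. At an unadjusted p under 0.05 in that fit the set held 1 gene, ADM, against 4.78% of all genes. Groups that did not overlap were found for 1 gene of the set, again ADM, against 9.73% of all genes. A higher mean in RWPE1-183FC was found for 8 of the 10 and a lower one for 2, against 52% of all genes that were higher. The median log2 fold change was 0.16 for the set and 0.0090 over all genes. All fold changes below are RWPE1-183FC minus RWPE1-CTRL on the log2 scale, and their 95% intervals come from the fit with no filter.

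**Figure D1:**
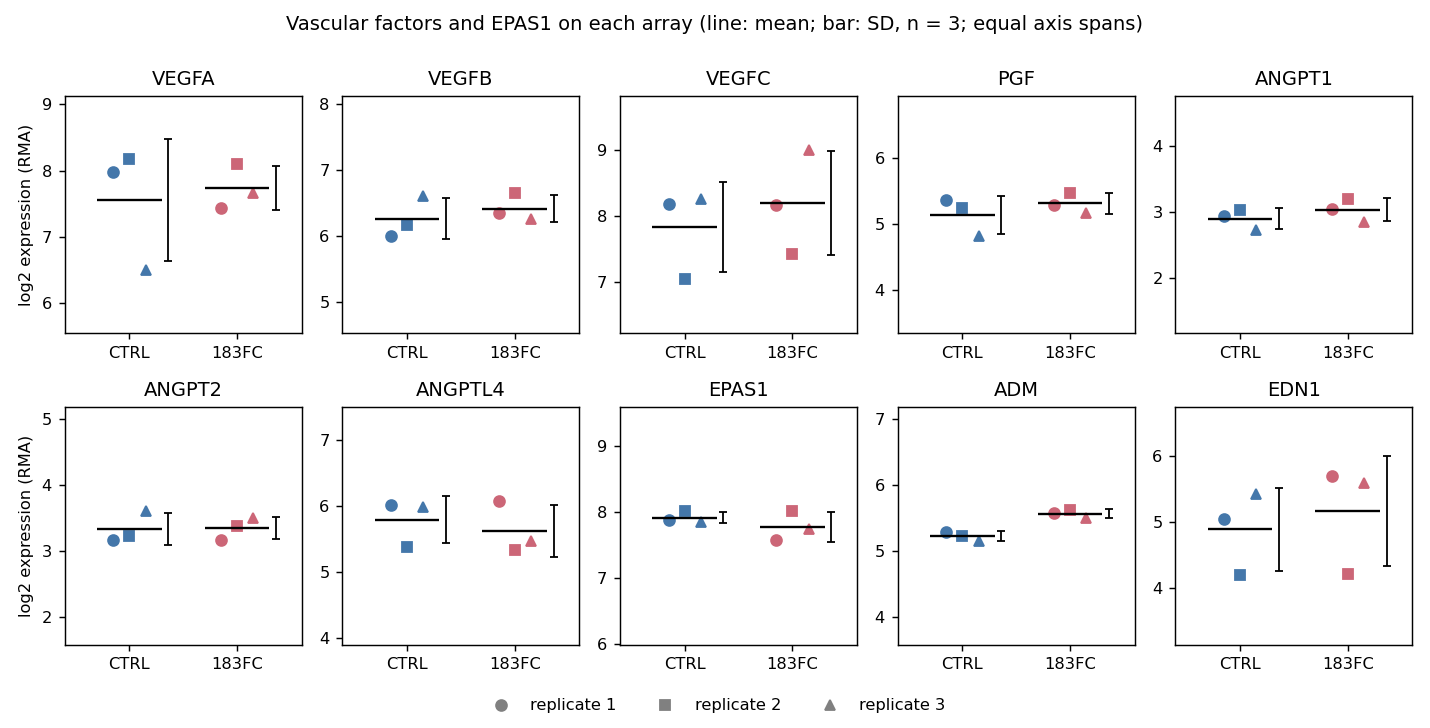
Log2 expression after RMA (y axis) of the 10 genes on each of the 3 RWPE1-CTRL (blue) and 3 RWPE1-183FC (red) arrays, with the replicate number as the marker shape, the group mean as a line and the SD as a bar. The groups are apart for ADM only (9.73% of all genes had groups apart), and both replicate 2 arrays (squares) are lowest for VEGFC, EDN1 and ANGPTL4.

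Among the VEGF ligands, VEGFA, the main growth signal for blood vessel endothelium, was at 7.98, 8.18 and 6.49 on RWPE1-CTRL replicates 1, 2 and 3, and at 7.44, 8.10 and 7.66 on the RWPE1-183FC replicates. RWPE1-CTRL replicate 3 stood more than 1 log2 unit below its group, and the 3 RWPE1-183FC arrays lay inside the range of the controls. The means were 7.55 ± 0.92 (SD, n = 3) and 7.73 ± 0.34 (SD, n = 3), a log2 fold change of 0.18 with a 95% interval of -0.68 to 1.04. The exact permutation test gave p = 0.9 (two-sided). Without RWPE1-CTRL replicate 3 the log2 fold change was -0.35, and without RWPE1-183FC replicate 2 it was -0.0011, so the direction rests on these arrays.

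VEGFC, the growth signal for lymphatic endothelium, was at 8.19, 7.05 and 8.26 in RWPE1-CTRL and at 8.17, 7.43 and 9.01 in RWPE1-183FC. Replicate 2 was the lowest array in both groups, and the groups overlapped. The log2 fold change was 0.37 with an interval of -0.54 to 1.28 (exact permutation test, p = 0.7). The differences within replicates 1, 2 and 3 were -0.02, 0.38 and 0.75. The interval was -0.004 to 0.75 when the replicate number was a block (limma with no filter, adjusted p = 0.604). Without RWPE1-183FC replicate 2 the filtered test called VEGFC higher, at 0.76 with an adjusted p of 0.148 from limma. Without both replicate 2 arrays it was 0.36 and not called (limma adjusted p = 0.964). The fold change was -0.03 without RWPE1-183FC replicate 3 and -0.02 without RWPE1-CTRL replicate 2.

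VEGFB and PGF, ligands of the receptor FLT1, differed by less than the spread within groups. VEGFB was at 6.01, 6.17 and 6.61 in RWPE1-CTRL and at 6.35, 6.65 and 6.26 in RWPE1-183FC, a log2 fold change of 0.15 with an interval of -0.27 to 0.58. PGF was at 5.36, 5.25 and 4.82 and at 5.29, 5.48 and 5.17, a log2 fold change of 0.17 with an interval of -0.23 to 0.57. For both genes the groups overlapped (exact permutation test, p = 0.5 each), and both intervals lay within 1.5-fold in either direction.

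ANGPT1, the activating ligand of the endothelial receptor TEK, and ANGPT2, which can block it, were dim. ANGPT1 was at 2.93, 3.03 and 2.72 in RWPE1-CTRL and at 3.05, 3.20 and 2.85 in RWPE1-183FC, higher in each replicate number by 0.11, 0.17 and 0.13. ANGPT2 was at 3.17, 3.22 and 3.61 and at 3.17, 3.38 and 3.50. Both had medians under the 20th percentile of all genes and so were not in the filtered test. The log2 fold changes were 0.14 (95% interval -0.22 to 0.49) for ANGPT1 and 0.02 (-0.36 to 0.40) for ANGPT2. The fold change of ANGPT2 turned negative without RWPE1-CTRL replicate 1 (-0.06), RWPE1-CTRL replicate 2 (-0.04) or RWPE1-183FC replicate 3 (-0.06).

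ANGPTL4, a secreted inhibitor of lipoprotein lipase that also acts on vessels, was at 6.01, 5.38 and 5.98 in RWPE1-CTRL and at 6.07, 5.33 and 5.47 in RWPE1-183FC. Replicate 2 was again lowest in both groups, and the groups overlapped. Its log2 fold change of -0.17 had an interval of -0.69 to 0.36, and the difference came mostly from replicate 3, at -0.52, against 0.06 and -0.05 in replicates 1 and 2.

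ADM encodes adrenomedullin, a peptide that widens vessels through the receptor CALCRL with RAMP2 or RAMP3. It was at 5.30, 5.24 and 5.15 in RWPE1-CTRL and at 5.59, 5.63 and 5.50 in RWPE1-183FC. Every RWPE1-183FC array lay above every RWPE1-CTRL array, by 0.29, 0.39 and 0.35 within replicates 1, 2 and 3. The log2 fold change was 0.34 with an interval of 0.04 to 0.65, or 1.27-fold (1.03 to 1.57). The exact permutation test gave p = 0.1, the smallest that 3 arrays against 3 allow. Adjusted over all genes the p from limma was 0.991, or 0.511 with the replicate number as a block, and a 1.27-fold change is under the 1.5-fold threshold. The pooled SD within groups, 0.069, stood at the 2.49th percentile of all genes. In the filtered fit its unadjusted p from limma was 0.119, against 0.0302 with no filter. With each array left out in turn the fold change stayed between 0.31 and 0.38 on the log2 scale.

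The genes whose values were most like those of ADM over the 6 arrays, as a description, were VAV3 (Pearson r = 0.993), PLXDC2 (r = 0.991), ZNF17 (r = 0.984), SORCS2 (r = 0.983) and TIAM2 (r = 0.983). In all, 43 genes had an r over 0.95, and all these values share the same arrays.

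EDN1 encodes endothelin, a peptide that narrows vessels through EDNRA and EDNRB. It was at 5.04, 4.19 and 5.42 in RWPE1-CTRL and at 5.69, 4.20 and 5.58 in RWPE1-183FC. Both replicate 2 arrays were far below the others, and they differed from each other by 0.02. The log2 fold change was 0.28 with an interval of -0.63 to 1.18 (exact permutation test, p = 0.5). The interval was -0.08 to 0.63 with the replicate number as a block (limma with no filter, adjusted p = 0.705). Without RWPE1-183FC replicate 2 the filtered test called EDN1 higher, at 0.75 with an adjusted p of 0.152 from limma, and without RWPE1-CTRL replicate 2 the fold change was -0.07. Without both replicate 2 arrays it was 0.41 and not called (limma adjusted p = 0.964).

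EPAS1, the hypoxia-regulated transcription factor HIF-2-alpha, was at 7.88, 8.003 and 7.84 in RWPE1-CTRL and at 7.57, 8.01 and 7.73 in RWPE1-183FC. The groups overlapped through replicate 2, the highest array in both. The log2 fold change was -0.14 with an interval of -0.49 to 0.21 (exact permutation test, p = 0.5). HIF1A was not analysed here.

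**Figure D2:**
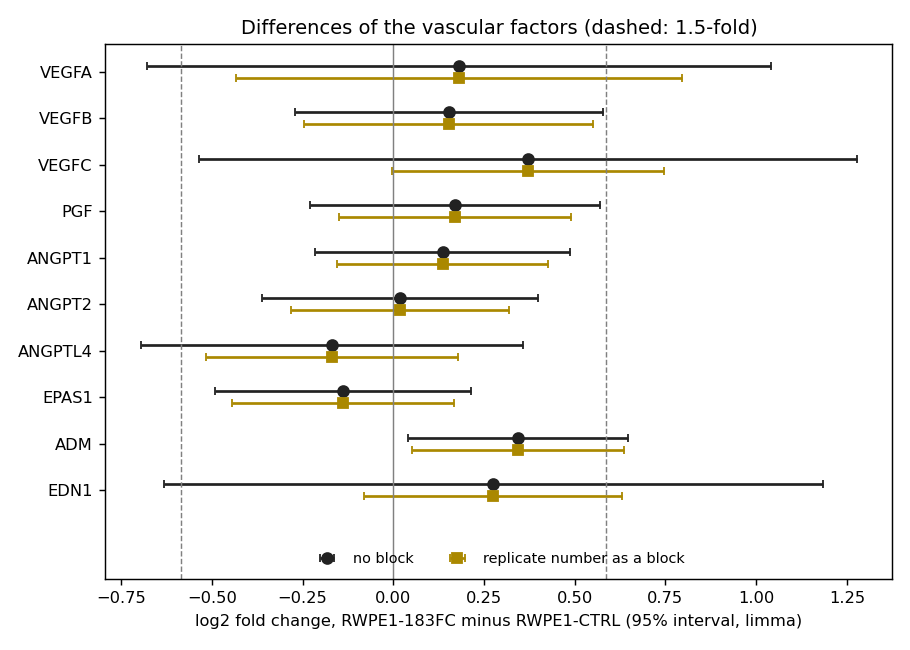
Log2 fold change of each gene, RWPE1-183FC minus RWPE1-CTRL (x axis), with 95% limma intervals with no block (black) and with the replicate number as a block (ochre), over 3 arrays a group and with no filter. ADM is the only gene whose interval lies above 0 in both fits, and the intervals of VEGFA, VEGFC and EDN1 are the widest with no block.

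The intervals differed in what they allow. For VEGFB, PGF, ANGPT1, ANGPT2 and EPAS1, 5 of the 10, the 95% interval lay inside 1.5-fold in both directions, so that changes beyond 1.5-fold were outside it. For VEGFA, VEGFC, ANGPTL4 and EDN1 the interval held 0 and reached past 1.5-fold, and for ADM it lay above 0 and reached past 1.5-fold. The within-group SDs of VEGFA (0.69), VEGFC (0.74) and EDN1 (0.74) were at the 99.2, 99.4 and 99.5th percentiles of all genes, against a median of 0.203. The filtered fit drew each gene's variance strongly towards a common value, with 175.8 prior degrees of freedom against 5.80 with no filter. There the standard error of VEGFC was 0.24, against 0.41 with no filter. That of ADM was larger there, at 0.22 against 0.14 with no filter.

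Replicate 2 stood apart for several genes of the set. VEGFC, EDN1 and ANGPTL4 were lowest on replicate 2 in both groups, and VEGFA, ANGPT1 and EPAS1 were highest on it in both. That is 30% of the set in each direction, where 18.4% of all genes were lowest on it and 20.1% highest. VEGFC lay 1.18 below the mean of the other replicates in RWPE1-CTRL and 1.16 below in RWPE1-183FC, and EDN1 1.04 and 1.43 below. ADM, in contrast, differed from the mean of the other replicates by only 0.01 and 0.08. The immediate early factors EGR1 and JUN were named after their values were seen, and CCN2, a target of YAP and TGF-beta, was among the genes of smallest p in its list. EGR1 was at 9.07, 6.94 and 8.48 in RWPE1-CTRL and at 9.93, 6.46 and 9.84 in RWPE1-183FC, low on both replicate 2 arrays. JUN (6.57 and 6.49 on replicate 2, at least 7.48 elsewhere) and CCN2 (4.34 and 4.69 on replicate 2, at least 5.29 elsewhere) had the same shape. What set replicate 2 apart was not tested. Without RWPE1-183FC replicate 2 the filtered test also called EGR1 (1.72), JUN (0.82) and CCN2 (0.98) higher. EGR1 was called without RWPE1-CTRL replicate 1 as well (1.04), and CCN2 without RWPE1-CTRL replicate 3 (0.86). None of these 3 genes was called in the main filtered test with all arrays.

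**Figure D3:**
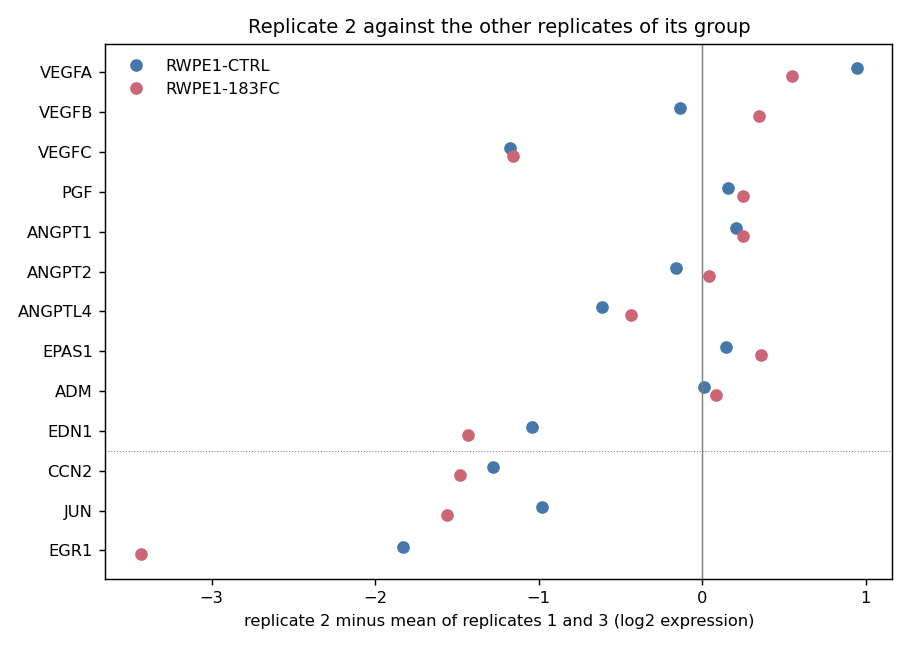
Log2 expression on replicate 2 minus the mean of replicates 1 and 3 of the same group (x axis), for the 10 genes and, under the dotted line, CCN2, JUN and EGR1, in RWPE1-CTRL (blue) and RWPE1-183FC (red). VEGFC and EDN1 are more than 1 log2 unit lower on replicate 2 in both groups, as are CCN2 and EGR1, while ADM is near 0.

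Of 13 measured receptors and co-receptors, 8 passed the filter and none of these was called. NRP2, the neuropilin that binds VEGFC as well as VEGFA, was at 5.18, 4.86 and 4.94 in RWPE1-CTRL and at 5.36, 5.71 and 5.76 in RWPE1-183FC, with no overlap. Its log2 fold change was 0.62 (95% interval 0.25 to 0.99). The adjusted p from limma was 0.423 with the filter. NRP2 was called with the filter and the replicate number as a block (limma adjusted p = 0.117). It was not called with the block and no filter (limma adjusted p = 0.320). NRP1, the other neuropilin, was at 7.91, 7.76 and 7.44 in RWPE1-CTRL and at 7.24, 7.66 and 7.15 in RWPE1-183FC. Its groups overlapped through replicate 2 of RWPE1-183FC, and the log2 fold change was -0.35 (-0.78 to 0.07).

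The VEGF receptor tyrosine kinases FLT1, KDR and FLT4 had group means of 3.26 to 3.65 and log2 fold changes of 0.08, 0.01 and -0.08. Of the adrenomedullin receptor genes, CALCRL had a log2 fold change of 0.24 (-0.31 to 0.79), RAMP2 of -0.24 and RAMP3 of -0.37 (-0.86 to 0.12). CALCRL and RAMP2 were dim and were not in the filtered test. RAMP1, a related gene that is not among the adrenomedullin partners given above, had a log2 fold change of 0.11. The endothelin receptor EDNRB was dim and was at 3.14 ± 0.03 (SD, n = 3) and 3.33 ± 0.10 (SD, n = 3), a log2 fold change of 0.19 (-0.12 to 0.50) with no overlap. TIE1, ACKR3 and SDC3 stood at -0.20, -0.08 and -0.02. TEK and EDNRA were not analysed here. The median log2 fold change of the receptor list was -0.02.

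The hypoxia targets held the only called gene outside the marker lists. CA12, a carbonic anhydrase at the cell surface, was at 6.24, 5.64 and 6.31 in RWPE1-CTRL and at 6.95, 6.58 and 6.91 in RWPE1-183FC, with no overlap. It rose by 0.75 on the log2 scale (95% interval 0.29 to 1.20). The adjusted p from limma was 0.119 with the filter and 0.0193 with the filter and the replicate block. The call was lost with no filter (adjusted p = 0.602). It was also lost without RWPE1-CTRL replicate 1 (0.83 on the log2 scale, adjusted p = 0.314 from limma), RWPE1-CTRL replicate 2 (0.53, 0.918), RWPE1-183FC replicate 1 (0.68, 0.9998) or RWPE1-183FC replicate 3 (0.70, 0.773). NDRG1, a stress-induced gene of the same list that was named after its values were seen, was at 7.29, 7.92 and 7.04 and at 7.72, 8.80 and 7.47, with overlap and an interval of -0.17 to 1.34. With the replicate block and no filter its interval was 0.25 to 0.91 and its adjusted p from limma 0.280. With the block and the filter the adjusted p from limma was 0.125. It was not called there because its log2 fold change of 0.583 was under the threshold of 0.585. Of 18 measured hypoxia targets, 15 passed the filter and 1 of these was called. Of all 18, 11 had a higher mean in RWPE1-183FC, with a median log2 fold change of 0.10.

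Of 10 measured HIF partners and regulators, 8 passed the filter and none of these was called. The median of the 10 was 0.03. ARNT, which pairs with HIF-2-alpha, was at 6.95 ± 0.16 (SD, n = 3) and 7.08 ± 0.20 (SD, n = 3), and the co-activator EP300 at 7.59 ± 0.20 (SD, n = 3) and 7.80 ± 0.18 (SD, n = 3). FHL2 had a log2 fold change of 0.21 (-0.13 to 0.55).

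**Figure D4:**
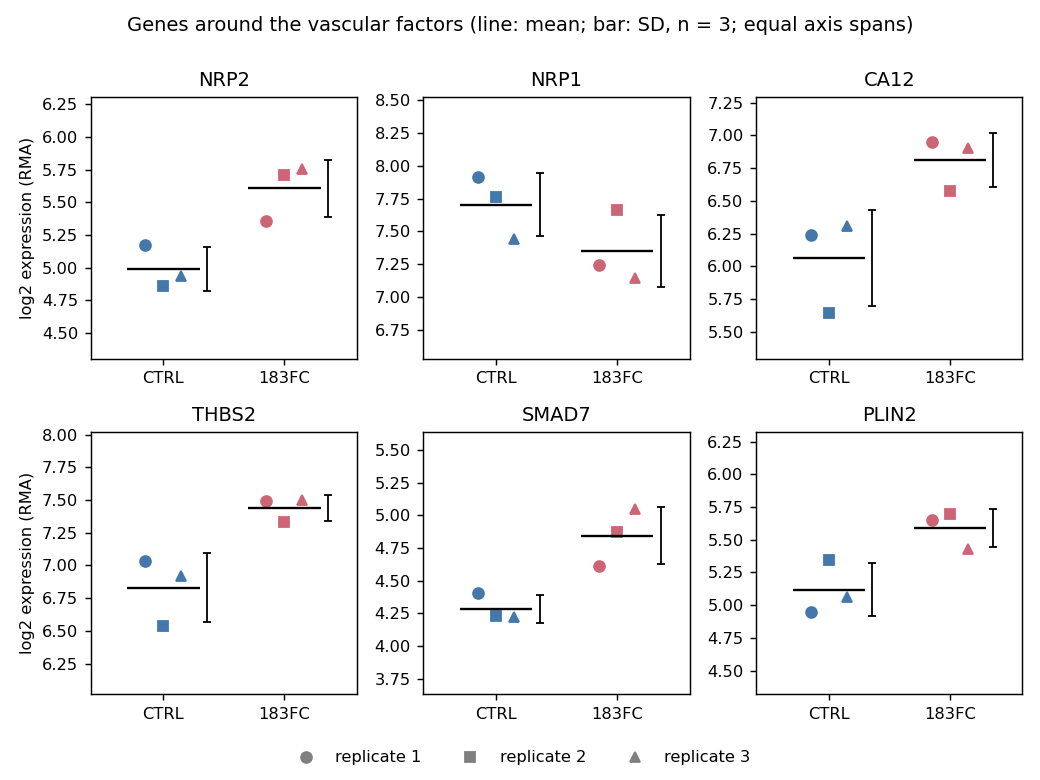
Log2 expression after RMA (y axis) of 6 genes around the vascular factors on the 3 RWPE1-CTRL (blue) and 3 RWPE1-183FC (red) arrays, with replicate numbers as marker shapes, means as lines and SDs as bars. NRP2, CA12, THBS2, SMAD7 and PLIN2 are higher on every RWPE1-183FC array, and NRP1 overlaps. The 6 genes were called or among those of smallest p in their lists, so separate groups follow in part from that choice. Over all genes 9.73% had groups that did not overlap.

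Of 13 measured inhibitors of vessel growth, 10 passed the filter and none of these was called. The median of the 13 was 0.04. THBS2, a thrombospondin of the matrix, was at 7.03, 6.54 and 6.92 in RWPE1-CTRL and at 7.49, 7.33 and 7.50 in RWPE1-183FC, with no overlap and a log2 fold change of 0.61 (0.24 to 0.98). Its adjusted p from limma was 0.451 with the filter, and it was called with the filter and the replicate block (adjusted p = 0.0920). It was not called with the block and no filter (limma adjusted p = 0.207). TIMP3, a metalloproteinase inhibitor that also blocks VEGF binding to KDR, had a log2 fold change of 0.47 (-0.03 to 0.97), and the chemokine CXCL10 one of -0.46 (-0.98 to 0.05). CXCL10 was dim and was not in the filtered test.

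Of 18 other secreted vascular factors, 13 passed the filter and none of these was called. The median of the 18 was 0.05. PTN, the heparin-binding factor pleiotrophin, was at 3.64, 3.57 and 3.59 in RWPE1-CTRL and at 2.66, 3.41 and 3.35 in RWPE1-183FC. All 3 arrays of RWPE1-183FC were lower, with a log2 fold change of -0.46 (-0.91 to -0.01) and an adjusted p of 0.951 from limma with the filter. PTN was dim, and its difference was -0.98 in replicate 1 against -0.16 and -0.25 in replicates 2 and 3. CCN2 had a log2 fold change of 0.48 and PDGFD, a platelet-derived growth factor, one of 0.29, both with overlap. PDGFD was dim and was not in the filtered test.

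Of 9 measured processing enzymes, 6 passed the filter and none of these was called. PCSK5, a proprotein convertase able to cut VEGFC, was at 3.81, 4.10 and 3.92 in RWPE1-CTRL and at 4.23, 4.35 and 4.26 in RWPE1-183FC, with no overlap and a log2 fold change of 0.34 (0.02 to 0.66). Its adjusted p from limma was 0.9992 with the filter. HPSE, the heparanase, had a log2 fold change of -0.25 (-0.71 to 0.21).

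ANGPTL4 is also a target of the PPAR receptors, and 7 genes of that list were measured. The filter kept 5 of them, and none was called. PLIN2, the coat protein of lipid droplets, was at 4.95, 5.35 and 5.07 in RWPE1-CTRL and at 5.65, 5.70 and 5.43 in RWPE1-183FC, with no overlap and a log2 fold change of 0.47 (0.11 to 0.83, limma adjusted p = 0.907 with the filter). PPARD and CPT1A had log2 fold changes of 0.29 and 0.28, and their groups overlapped. Of 9 AP-1, TGF-beta and KLF regulators, which act on EDN1 and VEGFA among others, 8 passed the filter and none was called. SMAD7, the inhibitory SMAD, was at 4.41, 4.23 and 4.22 and at 4.61, 4.87 and 5.05, with no overlap and a log2 fold change of 0.56 (0.20 to 0.91, limma adjusted p = 0.603 with the filter).

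**Figure D5:**
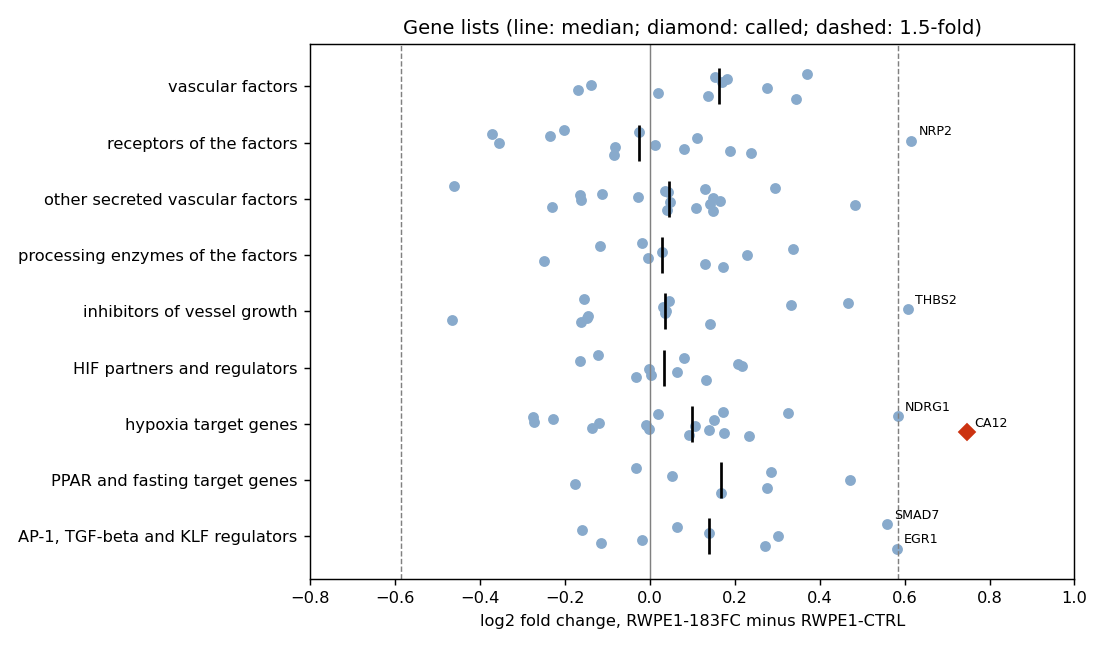
Log2 fold change, RWPE1-183FC minus RWPE1-CTRL (x axis), of each measured gene by list, with list medians as black lines, called genes as diamonds and dashed lines at 1.5-fold. CA12 is the only called gene in these lists, and the medians lie between -0.02 and 0.17.

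No marker of another cell type was called. The filter kept 7 of 11 endothelial, 3 of 4 luminal and 1 of 4 stromal markers for that test. Of 11 measured endothelial markers, 10 had a mean below the median of all genes, and the array means of the list were 4.17 to 4.32 in RWPE1-CTRL and 4.15 to 4.22 in RWPE1-183FC. PECAM1, EMCN and KDR, the dimmest of the list, were at 2.53 to 3.48 on all 6 arrays. ENG, the brightest, was at 7.60 ± 0.06 (SD, n = 3) and 7.37 ± 0.28 (SD, n = 3). The 4 luminal markers overlapped between the groups, and of 4 dim stromal markers THY1 did not, with lower values in RWPE1-183FC. Of 4 basal markers KRT15, a basal keratin, rose from 4.50 ± 0.31 (SD, n = 3) to 5.46 ± 0.13 (SD, n = 3), by 0.96 on the log2 scale, with an adjusted p of 0.00633 from limma with the filter. KRT5 and KRT14, which define basal epithelium, were at 9.30 to 9.86 and 8.70 to 9.84 over the 6 arrays, and KRT5 was lower on every RWPE1-183FC array with no call. Whether the change in KRT15 has a part in the values of ADM was not tested.

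Of the 10 genes, 7 had windows around a RefSeq transcription start (GRCh38.p14, 250 bases before to 50 after), and the motifs ACGTG and GCGTG were searched on both strands. All 7 genes had a match, as did 9 of their 10 windows (90%), against 48.4% of 35116 windows of all genes. The 2 windows of PGF overlap and share 1 match, which is counted in both. The windows of the set were rich in GC, at 42.67% to 84.67% with a median of 69.67% against 58.67% for all windows, and of all windows at or above that median of the set 66.4% held a match. CACGTG counts as a match on either strand. Matches of 6 genes are shown because this is the letter pattern the HIF proteins bind. They are a description and not sites of binding. Each line is read along the gene's strand, with the match in capitals, CACGT and CACGC being ACGTG and GCGTG on the other strand.
ADM, chr11:10304952-10304996: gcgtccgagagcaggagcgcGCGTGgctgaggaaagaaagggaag
EDN1, chr6:12287906-12287950: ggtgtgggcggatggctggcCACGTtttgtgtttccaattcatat
VEGFB, chr11:64234503-64234547: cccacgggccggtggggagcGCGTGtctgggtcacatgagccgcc
VEGFC, chr4:176792957-176793001: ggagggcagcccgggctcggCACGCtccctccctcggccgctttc
ANGPTL4, chr19:8363905-8363945: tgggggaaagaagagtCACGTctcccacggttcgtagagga
EPAS1, chr2:46297270-46297314: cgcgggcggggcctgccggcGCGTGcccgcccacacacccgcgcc
VEGFC is on the minus strand and the others on the plus strand. The first base of the match lies 101 bases before the start for ADM, 93 for EDN1 (1 of several in its windows), 61 for VEGFB, 59 for VEGFC, 234 for ANGPTL4 and 117 for EPAS1. ADM, with separate groups, and VEGFB and EPAS1, with overlapping groups, carry the same GCGTG on the gene's strand.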

How the data were processed

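The authors deposited log2 values per transcript cluster, made by RMA (background correction, normalization across arrays and summary over probes). Partek and RMA are named in the submitters' processing notes, and the study's methods name the oligo package. The methods name Human Gene 1.0 ST arrays and a 2.0 ST annotation. Of 53617 clusters, 16098 had 1 symbol and 37519 none here, and the brightest cluster of each symbol gave 14884 genes. A filter on median and variance, each at its 20th percentile, kept 9583. Groups were compared with limma 3.58.1 in R 4.3.3 (Benjamini-Hochberg, two-sided), and single genes also with the exact permutation test. The script was tested on simulated data. Figures were drawn with matplotlib 3.10.9.

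Deviations from the group means correlated at 0.101, 0.511 and 0.290 between arrays of replicates 1, 2 and 3, and at most at 0.214 between different numbers. Every value between equal numbers was over 0.1, the limit set for pairing, which the labels do not state. The main fits were unpaired, and blocked fits were run as alternatives. The genes and lists were chosen with earlier results of these data known. Named were all genes of the set, the called genes of each list or else the 3 of smallest p, the receptors, and the 5 genes most like ADM. EGR1, JUN and NDRG1 were added after their values were seen. The markers PECAM1, EMCN, KRT5 and KRT14 are named outside this rule as well.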

Additional observations from a re-analysis of the deposited data

How the results depend on the processing

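The number of called genes, 90, depended on the processing. It was 162 with the replicate block, 37 when only the median was filtered on, 36 with no filter, 51 at a false-discovery rate under 0.05, 192 with array weights, and 43 to 152 with 1 array left out. Leaving out RWPE1-CTRL replicate 1 gave 58, and leaving out RWPE1-183FC replicates 1, 2 and 3 gave 43, 152 and 57. Called genes of the set numbered 0 in every setting but 1, and 0 to 2 with 1 array left out, the 2 being VEGFC and EDN1 without RWPE1-183FC replicate 2. Of 160 values of the set under alternatives with no filter, 150 kept direction and call, 10 turned direction and 0 became called. The block, the stricter rate, the changes of cluster handling and the variants of limma's variance step leave these genes' fold changes as they were. Values from those settings could not turn direction, so the 150 are no measure of stability. The smallest adjusted p from limma was 0.5105, for ADM with the replicate block, which changed no call in the set.

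With 1 array left out, the log2 fold change ran from -0.347 to 0.496 for VEGFA (the lowest with RWPE1-CTRL replicate 3 left out, and -0.0011 with RWPE1-183FC replicate 2 left out), from -0.0314 to 0.756 for VEGFC (-0.0216 without RWPE1-CTRL replicate 2), and from -0.0722 to 0.753 for EDN1. For ANGPT2 it ran from -0.0647 to 0.1555 (-0.036 with RWPE1-CTRL replicate 2 left out, and -0.0588 with RWPE1-183FC replicate 3 left out). Without both replicate 2 arrays it was -0.0083 for VEGFB and -0.0490 for ANGPT2. EGR1 ran from -0.0293 to 1.724 (-0.0125 without RWPE1-183FC replicate 1) and JUN from -0.0241 to 0.823. The cause of these turns was not tested. EGR1 was called with array weights (0.81) and without both replicate 2 arrays (1.11), and CCN2 with array weights (0.67). KRT15 was not called over all transcript clusters (limma adjusted p = 0.215). CA12 was not called over all clusters (0.638), when only the median was filtered on (0.549), without both replicate 2 arrays (0.406) or at the stricter rate. With 3 arrays a group, the limma intervals with no filter and no block were wide for VEGFA, VEGFC, ANGPTL4 and EDN1. As RWPE1-183FC over RWPE1-CTRL they ran from 0.63 to 2.06 for VEGFA and from 0.69 to 2.42 for VEGFC. They ran from 0.65 to 2.27 for EDN1 and from 0.62 to 1.28 for ANGPTL4. Changes past 1.5-fold were therefore not excluded for these genes. ANGPT1 and ANGPT2 were near the dim end of the scale.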
